A study of Mus musculus with 3 samples.

Results

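Extracellular adenosine is a danger signal that restrains the inflammatory output of macrophages, and the 8 genes described here encode its receptors and the enzymes that make and remove it. They are the receptor genes Adora1, Adora2a, Adora2b and Adora3, the ectoenzyme genes Entpd1 and Nt5e, and the genes Ada and Adk for the enzymes that clear adenosine. They were picked by gene name from the 36870 gene names on the array, and all 8 were found, on 15 of the 56605 probes. The set was chosen with the low Adora2b signal after both strains already known, from the differences of the LOC1 and LOC3 arrays from the LPS array, so those differences are given here as a description and support nothing beyond themselves.

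RNA came from RAW264.7 cells, a transformed mouse macrophage line, in 3 conditions with 1 one-colour Agilent array each. In the first, macrophages received no bacteria and were challenged with lipopolysaccharide (LPS), the cell wall component of Gram-negative bacteria that activates TLR4, for 3 h (LPS). In the others, macrophages were first exposed to 1 of a pair of Lactiplantibacillus plantarum strains from fresh tea leaves, LOC1 or LOC3, and were then given the same LPS challenge (LOC1+LPS and LOC3+LPS). The labels give 12 h of contact with the lactobacilli and the methods a longer time, and the bacteria were washed off before LPS. The study's methods and results give different LPS doses. No array of macrophages given lactobacilli without LPS belongs to the design. Macrophages that met neither bacteria nor LPS enter only through the log2 ratios that the authors deposited. With 1 array per condition there is no spread between replicates, no SD and no test, and a difference between arrays is a difference between those RNA samples. A single line that grows in culture also stands in for macrophages as a whole. A change in the share of cells that express a gene and a change of its level in every cell cannot be told apart in this RNA.

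The 3 arrays were similar in brightness, with a 75th percentile of the processed intensity between 332 and 367 in the scanner's units, and between 47.8% and 51.9% of their probes were well above background, which is the scanner software's own call on each spot. All lay on 1 slide and in 1 scan. Probes printed several times give the technical error: the standard deviation of a log2 difference between arrays was 0.06 for 261 bright probes and between 0.28 and 0.34 for 8 dim ones. Of 9 macrophage marker genes on the array, 8 (Ptprc, Csf1r, Adgre1, Cd68, Itgam, Lyz2, Cd14 and Fcgr1) were well above background on all 3 arrays, with intensities from 7886 to 244528, and Mrc1 was dim, at 53.3 with LPS and not well above background with either strain. Among markers of other cell types, Ncr1 and Krt18 were not well above background on any array, and 7 others read from 4.48 to 451 (Cd3e). Cd3e, Col1a1, Pecam1, S100a8 and Hba-a1 were well above background on all 3 arrays. Mpo was so with LPS and LOC1+LPS, and Epcam with LPS alone.

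Adenosine reaches the outside of a cell mainly as ATP, which the ectonucleotidase CD39 (Entpd1) takes down to AMP and CD73 (Nt5e) to adenosine. The receptors are G protein-coupled: Adora2a and Adora2b couple to Gs and raise cyclic AMP, while Adora1 and Adora3 couple to Gi and lower it. Adenosine deaminase (Ada) turns adenosine into inosine and adenosine kinase (Adk) turns it back into AMP inside the cell. In macrophages, Adora2a and Adora2b are known for curbing TNF and IL-12 release and for raising IL-10 during TLR stimulation, and Adora2b is known as the low-affinity receptor that answers to the high adenosine of injured or hypoxic tissue.

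Adora2b is read by a single probe of 60 bases on transcript NM_007413, at mm9 chr11:62079096-62079155 on the plus strand, and every Adora2b value given here rests on it. It is shown here, with the probe of Ada on the minus strand at mm9 chr2:163556042-163556101 and that of Adk on the plus strand at mm9 chr14:22059713-22059772, so that the receptor probe can be set beside 2 enzyme probes. The strand is that of the probe annotation and the letters are those of the array design, 5′ to 3′.
Adora2b probe: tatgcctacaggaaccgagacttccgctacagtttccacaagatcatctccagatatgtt
Ada probe: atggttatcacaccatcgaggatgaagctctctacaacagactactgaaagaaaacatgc
Adk probe: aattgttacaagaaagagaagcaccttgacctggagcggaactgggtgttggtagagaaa
The Adora2b probe has a GC content of 45.0% and no stop codon in any of its 3 forward frames. The longest stretch it shares with a probe for any other gene on the array is 14 bases, with Taf1, and it shares no stretch of 8 bases or more with a probe of another gene of the set.

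The sequences upstream of the start sites of Adora2b and Adora3, the receptor genes past 2-fold lower with both strains, are shown next. They are the 250 bases before the start site, from RefSeq on GRCm38.p6, at chr11:62248734-62248983 and chr3:105904171-105904420, both on the plus strand. Capitals mark matches on either strand to 8 motifs: the NF-kB site, the core TGACG of the cyclic AMP response element, the hypoxia response core ACGTG with its variant GCGTG, the site TGANTCA known to bind AP-1, the box with the letters GGGCGG (GC box), the CCAAT box and the TATA box, searched as TATAAA.
Adora2b upstream: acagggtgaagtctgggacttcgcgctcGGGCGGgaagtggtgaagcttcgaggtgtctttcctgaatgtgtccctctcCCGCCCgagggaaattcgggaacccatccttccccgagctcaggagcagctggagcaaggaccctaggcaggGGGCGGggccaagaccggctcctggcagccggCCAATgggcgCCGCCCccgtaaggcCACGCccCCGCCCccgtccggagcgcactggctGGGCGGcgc
Adora3 upstream: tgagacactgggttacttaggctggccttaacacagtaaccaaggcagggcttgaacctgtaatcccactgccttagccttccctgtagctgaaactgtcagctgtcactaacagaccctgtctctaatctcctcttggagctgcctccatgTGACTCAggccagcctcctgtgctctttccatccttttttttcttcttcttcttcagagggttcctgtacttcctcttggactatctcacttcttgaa
The Adora2b sequence holds 6 GC boxes, 1 CCAAT and 1 GCGTG, the last with its first base at position -42 from the start site. Of 32851 promoters of 300 bases in the same table, 35.7% hold a GC box, 37.4% a CCAAT and 32.4% a GCGTG. The Adora3 sequence holds a single match, an AP-1 site at position -98, which 7.8% of the promoters hold. In the table's window of 300 bases, which adds 50 bases after the start site, the GC content was 70.0% for Adora2b and 48.3% for Adora3. Such windows were found for 7 of the 8 genes, in 10 sequences. An NF-kB match, present in 8.5% of all promoters, occurred in the window of Ada alone, at position -137. The TGACG core, found in 20.8%, occurred in those of Adk and Entpd1. ACGTG (19.6%) occurred in that of Adora1, and TATAAA (13.6%) in none. A match is a description of letters and not a binding site.

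To compare conditions, each intensity was put on the log2 scale and the array's 75th percentile subtracted, and a gene with several probes was represented by its brightest. A difference of at least 2-fold, 1 on the log2 scale, was counted as past the threshold. A gene was compared where either array of a pair had it well above background, and a dim side was raised to the dimmest signal that its array still called well above background, which turns the difference into a bound. Where the raised side passed the detected side, the difference was set to 0. With LOC1, 2.73% of the 20025 genes compared were at least 2-fold higher than with LPS alone and 3.56% at least 2-fold lower. With LOC3, 3.26% of 19807 were higher and 2.96% lower. Between the strains, 0.809% of 19395 were higher with LOC1 and 1.9% lower. The split depends on the scaling: 43.4% of the genes past 2-fold with LOC1 and 52.4% with LOC3 were higher, against 65.4% and 70.2% when arrays were scaled to their medians and 34.8% and 43.7% when the percentile was taken over detected probes. The LOC1 and LOC3 differences from LPS share the LPS array, so their values are set side by side and nothing is read from their likeness.

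Of the 8 genes, 5 (Adora2a, Adora2b, Entpd1, Ada and Adk) were well above background on all 3 arrays, Adora3 only with LPS alone, and Adora1 and Nt5e on none. Of the 6 that could be compared, 2 were at least 2-fold lower with LOC1, 0 were higher and 4 stayed under 2-fold, and the counts were the same with LOC3. The 2 were Adora2b and Adora3, both receptors. The median log2 difference of the 6 was -0.23 with LOC1 and -0.19 with LOC3, beside 0.03 and 0.05 over all genes compared. Between the strains, 5 could be compared and 0 were past 2-fold, with a median of -0.06 beside -0.01. Since these contrasts chose the set, nothing is read from the counts.

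**Figure D1:**
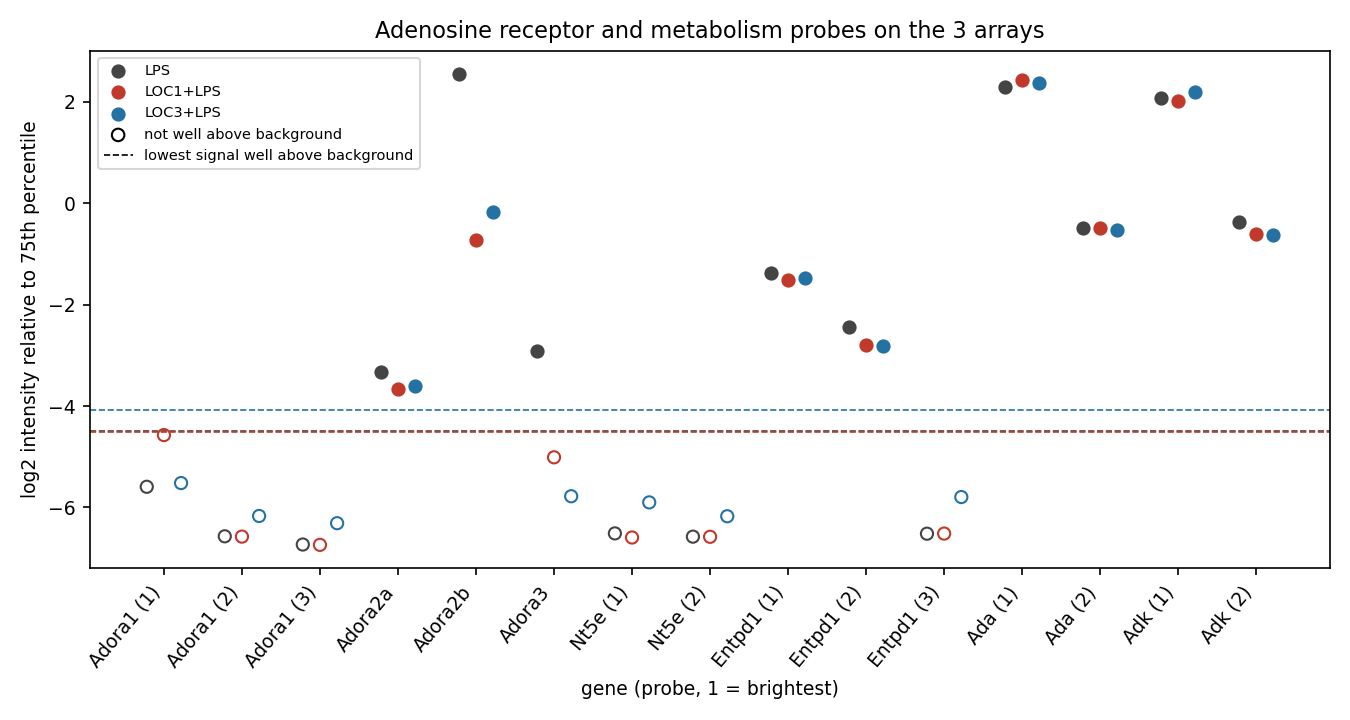
Log2 intensity less the array's 75th percentile (vertical axis) for the 15 probes of the 8 genes (horizontal axis, probes of a gene numbered from the brightest) on the LPS, LOC1+LPS and LOC3+LPS arrays, 1 point per array. Filled points are well above background, open points are not, and dashed lines mark each array's dimmest signal still called well above background; Adora2b stood at 2.54 with LPS and at -0.72 and -0.17 with the strains, while the points of Entpd1, Ada and Adk lie close together.

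Adora2b, the low-affinity Gs-coupled receptor, had the largest difference of the set measured on detected signals. Its intensity was 2134 ± 213 with LPS, 202 ± 20.4 with LOC1+LPS and 297 ± 30.0 with LOC3+LPS, where the error is the scanner software's own estimate for the spot and not a spread between samples. Relative to the 75th percentile of each array, these were log2 levels of 2.54, -0.72 and -0.17. The LPS array was high, above the 75th percentile, and both strain arrays were below it.

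On the log2 scale Adora2b was lower than with LPS by a difference of -3.26 with LOC1 (scanner error 0.21), which is 9.57-fold. With LOC3 the difference was -2.71 (0.21), or 6.53-fold. Of the 20025 genes compared with LOC1, 16 lay lower than Adora2b, and 17 of 19807 did with LOC3. Between the strains the receptor differed by -0.55 (0.21), or 1.46-fold lower with LOC1, which is under the 2-fold threshold although larger than the technical error of repeated bright probes (0.06). No replicate shows whether the strains differ.

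The deposited ratios give the position of Adora2b relative to unchallenged macrophages. A value is present in that table where a condition was 2-fold or more away from the unchallenged cells, and blank elsewhere. Over the 56605 probes, 7.08% were listed as higher with LPS and 6.31% as lower, and of the 15 probes of the set 2 were listed as higher and 3 as lower. Adora2b was listed at 3.97 with LPS, 15.7-fold above unchallenged cells. With LOC3 it was listed at 1.27, or 2.41-fold above. Its LOC1 cell was left blank, and the ratio rebuilt from the intensities was 0.72, or 1.64-fold above. The level with LPS after LOC1 thus lay within 2-fold of cells that had not met LPS. These ratios use the same LPS intensity as the comparisons above and are not a second measurement of it.

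Adora3, the Gi-coupled receptor that is prominent on mast cells and neutrophils, was also read by a single probe, at mm9 chr3:105711212-105711271 on the plus strand. Its intensity was 48.4 ± 5.83 with LPS, 10.3 ± 3.09 with LOC1+LPS and 6.08 ± 3.96 with LOC3+LPS. It was dim with LPS and not well above background with either strain, so only bounds can be given. Adora3 was at least 3.02-fold lower with LOC1 (log2 -1.59) and at least 2.22-fold lower with LOC3 (-1.15). The strains could not be compared. The deposited ratio put Adora3 at 1.38, or 2.60-fold, above unchallenged cells with LPS. It left the LOC1 cell blank (rebuilt -0.71) and listed LOC3 at -1.47, a value from a signal not well above background. The unchallenged intensity implied by these ratios was 18.6, close to the LPS array's detection limit of 16.3. Whether the unchallenged signal was above background is not known here.

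The call on Adora3 rests on a weak signal. Under normexp background correction, a model-based correction that shrinks dim signals, its differences were -0.56 with LOC1 and -0.51 with LOC3, neither past 2-fold. In RefSeq the gene lies inside the span of Tmigd3 (GRCm38.p6 chr3:105870858-105924044), an immunoglobulin-domain gene. Tmigd3 was looked up because of this overlap, outside the rule for named genes, and its 1 probe read 9.81, 3.50 and 7.92 with LPS, LOC1+LPS and LOC3+LPS, not well above background on any array.

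Adora2a, the high-affinity Gs-coupled receptor and the main target of adenosine agonists in inflammation, was detected but dim on its single probe (mm9 chr10:74797461-74797520, plus strand). Its intensity was 36.3 ± 5.21 with LPS, 26.1 ± 4.26 with LOC1+LPS and 27.4 ± 5.31 with LOC3+LPS. The log2 differences from LPS were -0.33 (scanner error 0.31) with LOC1 and -0.27 (0.35) with LOC3, and that between the strains -0.06 (0.37). Differences from LPS of this size are close to the technical error of dim probes and that between the strains is far under it, so no change in Adora2a was detectable on these arrays. It has no row in the deposited table.

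Adora1, the high-affinity Gi-coupled receptor, was not well above background on any array with any of its 3 probes. The brightest read 7.62 with LPS, 13.96 with LOC1+LPS and 7.28 with LOC3+LPS, and the others lay between 3.11 and 4.64. The deposited table lists that probe as lower than in unchallenged cells with LPS (-1.59) and LOC3+LPS (-1.52), from signals below the limit on these arrays. The implied unchallenged intensity was 23.0 and the detection limit of the LPS array 16.3, which gives a bound of at least 1.41-fold lower with LPS if the unchallenged signal was itself above background, which is not known here.

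**Figure D2:**
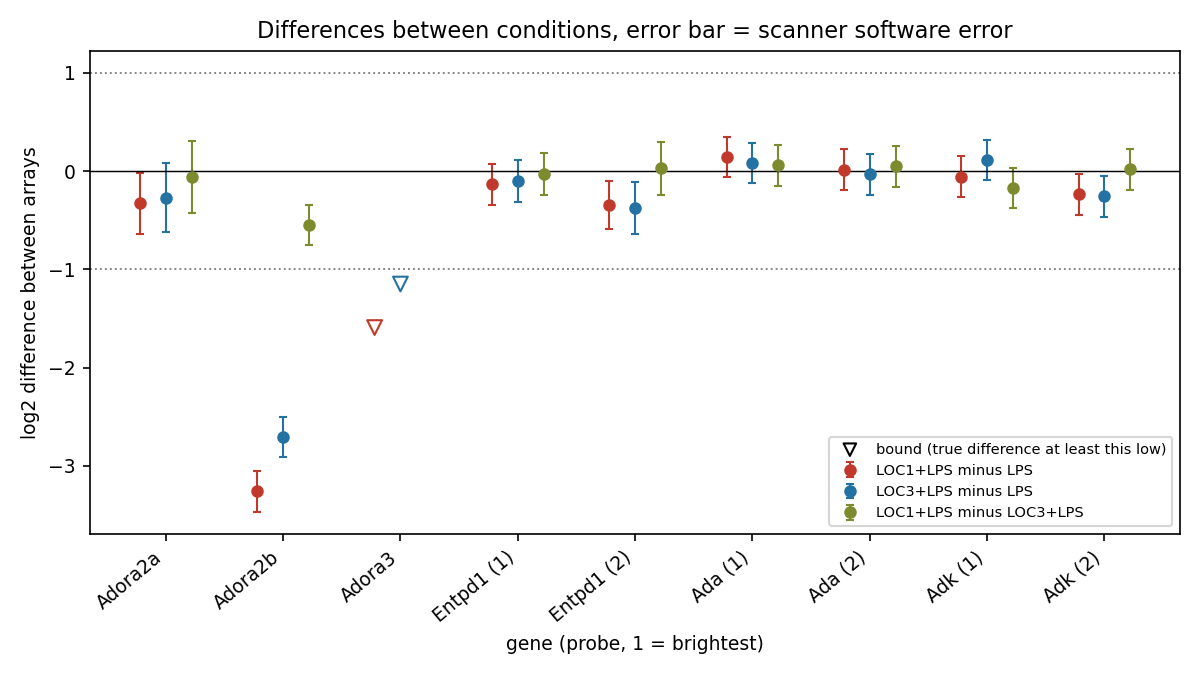
Log2 difference between arrays (vertical axis) for the 9 probes of the set with a signal well above background in any condition (horizontal axis), with the scanner software's error as bars. Dotted lines mark 2-fold; Adora2b lies at -3.26 (LOC1+LPS minus LPS) and -2.71 (LOC3+LPS minus LPS), the open triangles for Adora3 are bounds at -1.59 and -1.15, and all other points lie between -0.55 and 0.14.

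Of the enzymes that make adenosine outside the cell, Entpd1 was present and Nt5e was not detected. The brightest of 3 Entpd1 probes read 142 ± 14.6 with LPS, 117 ± 12.1 with LOC1+LPS and 120 ± 12.7 with LOC3+LPS. The log2 differences from LPS were -0.14 (0.21) with LOC1 and -0.10 (0.21) with LOC3, smaller than the scanner's error. A second probe at 67.4, 47.9 and 47.2 gave -0.35 (0.24) and -0.38 (0.26), and the third was not well above background on any array. Both detected probes stayed under 2-fold between the arrays, but the differences of the second from LPS were larger than their scanner errors.

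For Entpd1 the larger difference was from unchallenged cells. Its brightest probe was listed at -1.41 with LPS, -1.55 with LOC1+LPS and -1.51 with LOC3+LPS, which are 2.66-fold, 2.92-fold and 2.85-fold below unchallenged macrophages. The second probe was blank with LPS (rebuilt -0.87) and listed at -1.22 and -1.24 with the strains. Both probes put all 3 conditions below unchallenged cells, and the second lay 1.83-fold below them with LPS, against 2.33-fold and 2.37-fold with the strains. Nt5e, the ecto-5′-nucleotidase that releases adenosine from AMP, read between 3.44 and 5.59 on its 2 probes and was not well above background on any array. It is not in the deposited table, and nothing can be said of its change.

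The enzymes that remove adenosine were bright and varied little. Ada read 1787 ± 179 with LPS, 1782 ± 178 with LOC1+LPS and 1722 ± 172 with LOC3+LPS on its brighter probe, for log2 differences of 0.14 (0.20) and 0.08 (0.20). The second probe, printed above, read 260, 237 and 231 and gave 0.01 (0.21) and -0.03 (0.21). The brighter probe was listed at -1.25 with LPS, -1.11 with LOC1+LPS and -1.17 with LOC3+LPS, so that Ada was 2.38-fold, 2.16-fold and 2.24-fold below unchallenged cells. The second probe has no row in that table, so its position relative to unchallenged cells is not known. Both Ada probes stood near the same level in all 3 LPS conditions.

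Adk gave slightly different values on its 2 probes. The brighter, designed on the cDNA AK028100, read 1551 ± 155 with LPS, 1349 ± 135 with LOC1+LPS and 1525 ± 153 with LOC3+LPS, for log2 differences of -0.06 (0.20) and 0.11 (0.20). The probe on transcript NM_001243041, printed above, read 285, 219 and 217, for -0.24 (0.21) and -0.26 (0.21). All 4 differences were well under 2-fold, and neither probe is in the deposited table.

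**Figure D3:**
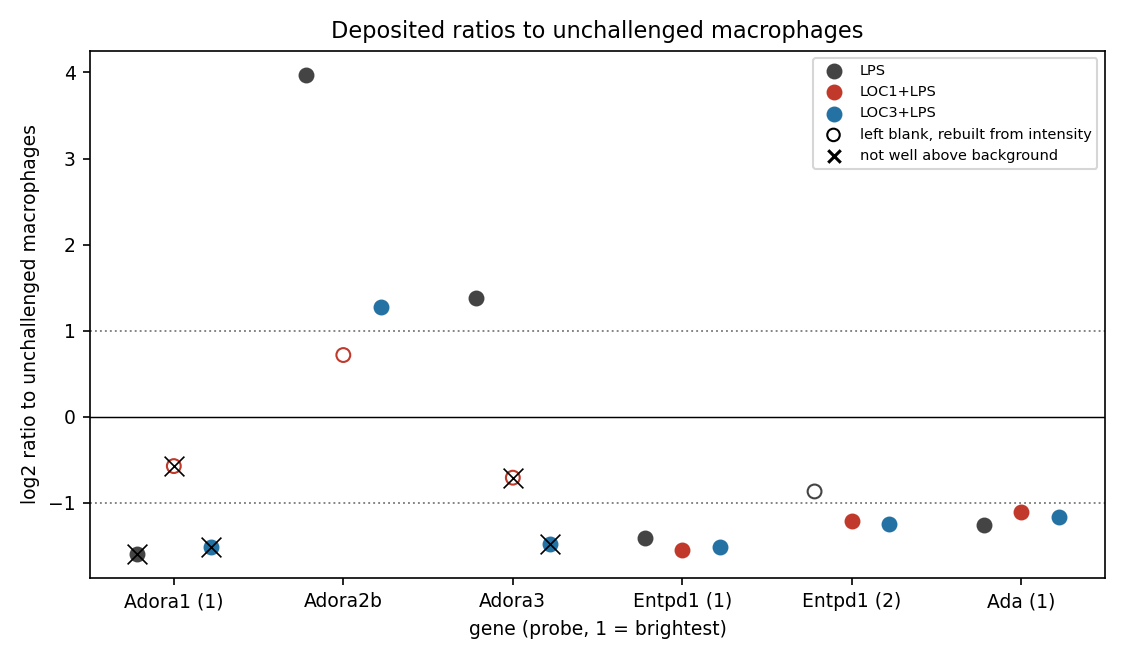
Log2 ratio to unchallenged macrophages (vertical axis) for the 6 probes of the set with a row in the deposited table (horizontal axis). Filled points are listed ratios, open points were left blank and rebuilt from the intensities, crosses mark signals not well above background and dotted lines 2-fold; Adora2b lies at 3.97 with LPS and at 0.72 and 1.27 with the strains, whereas Entpd1 and Ada lie between -1.55 and -0.87 in all 3 conditions.

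The genes whose pair of differences was nearest to that of Adora2b were found among 17397 genes well above background on all 3 arrays, by Euclidean distance on the log2 scale. They are a description of likeness on 3 arrays. The technical error of dim probes was 0.28 to 0.34, so the order of genes that were dim with the strains is not settled. The nearest was AF039839, named as on the array, at a distance of 0.09, with -3.17 with LOC1 and -2.68 with LOC3. Its intensity went from 347 with LPS to 34.9 and 49.3, dim with both strains. Il1r2, the decoy receptor of interleukin-1, lay at 0.23 with -3.46 and -2.83, and its intensity went from 536 with LPS to 44.2 and 68.7. Alox5, the 5-lipoxygenase that starts leukotriene synthesis, lay at 0.29 with -3.03 and -2.53, and its intensity went from 2667 to 295 and 419. Asb2, a substrate adaptor of a ubiquitin ligase, lay at 0.34 with -3.002 and -2.48. The acute-phase gene Saa2 lay at 0.40 with -3.66 and -2.73, and its intensity went from 471 to 33.7 and 64.6.
These genes did not share the height of the LPS response: Saa2 was listed at 7.07 above unchallenged cells with LPS and Asb2 at 1.09, beside 3.97 for Adora2b, and the other 3 have no listed ratio with LPS.

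The other genes of the pathway were taken from 5 lists chosen by function. Their counts are to be set beside the shares over all genes compared. With LOC1, 2.73% of all genes were at least 2-fold higher and 3.56% lower, and with LOC3 3.26% and 2.96%. The medians over all genes were 0.03 and 0.05. Of 45 genes for purine enzymes and nucleoside transporters, 36 could be compared. With LOC1, 1 was at least 2-fold higher, 2 were lower and 33 stayed under 2-fold, with a median of -0.01. With LOC3, 0 passed in either direction, with a median of 0.04. Slc28a2, a concentrative nucleoside transporter that carries adenosine into the cell, read 1714 with LPS, 3728 with LOC1+LPS and 2869 with LOC3+LPS. Its log2 differences were 1.27 and 0.88, on top of a listed 3.05 above unchallenged cells with LPS. Gda, guanine deaminase, read 716, 314 and 341, for -1.04 and -0.93. Nt5c1b, a cytosolic nucleotidase, was dim at 38.5 with LPS and not well above background with the strains, for bounds of -1.26 and -0.82. Under normexp neither call held, at -0.92 for Gda and -0.41 for Nt5c1b with LOC1.

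Slc29a1, the main equilibrative nucleoside transporter, read 3644, 2627 and 2718, for -0.33 and -0.29. Its relative Slc29a2, outside the rule for named genes, read 74.1, 39.0 and 50.4, for -0.78 and -0.42. Pnp, which splits inosine to hypoxanthine, was bright at 28669 with LPS, 33719 with LOC1+LPS and 34838 with LOC3+LPS, for 0.38 and 0.42, and was listed at 2.66 above unchallenged cells with LPS. Dpp4, from the same list, was dim at 32.0, 28.8 and 29.8, for -0.00 and 0.04.

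The P2 receptors sense extracellular nucleotides, among them ATP and ADP, from which adenosine is made, and the uracil nucleotides. Of 15, 7 could be compared. With LOC1, 2 were at least 2-fold lower and 0 higher, and with LOC3 1 was lower and 0 higher, with medians of -0.11 and -0.13. Over all genes compared, 3.56% were lower with LOC1 and 2.96% with LOC3, with medians of 0.03 and 0.05. P2ry6, the UDP receptor, read 47718 with LPS, 12839 with LOC1+LPS and 17352 with LOC3+LPS. Its log2 differences were -1.75 and -1.32, and its 2 probes lay between -2.45 and -1.32. P2ry2, the receptor for ATP and UTP, read 3580, 1371 and 1796, for -1.24 and -0.86, with 1.38 listed above unchallenged cells with LPS. P2rx7, the ATP-gated channel that feeds the inflammasome, read 367, 396 and 386, for 0.26 and 0.21, and was listed at -1.03 with LPS.

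A list of other receptors that act on cyclic AMP held 13 genes, of which 12 were on the array and 8 could be compared. They couple to Gs as Adora2b does, apart from Hcar2, the niacin receptor, which couples to Gi and differed from LPS by 0.26 with LOC1 and 0.34 with LOC3. In each comparison with LPS 1 was higher and 1 lower, with medians of 0.15 with LOC1 and 0.26 with LOC3, or 0.09 and 0.19 without Hcar2. Ptger4, a prostaglandin E2 receptor that raises cyclic AMP in macrophages, was the lower: it read 5750 with LPS, 889 with LOC1+LPS and 1315 with LOC3+LPS. Its log2 differences were -2.55, or 5.85-fold, and -1.99, or 3.97-fold, and a second probe gave -2.81 with LOC1 and -1.88 with LOC3. Ptger4 was listed at 1.63 above unchallenged cells with LPS. Ptger2, the other Gs-coupled prostaglandin E2 receptor, read 1846, 1776 and 1918 and differed from LPS by 0.09 and 0.19 on the log2 scale, with 2.85 listed above unchallenged cells. Of the 2 prostaglandin E2 receptors of this kind, Ptger4 was past 2-fold lower with both strains and Ptger2 within 2-fold of its level with LPS alone. Calcrl, the core of the adrenomedullin and CGRP receptors, was the higher: it read 653, 1607 and 1439, for 1.44 and 1.28.

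Of 35 genes of the cyclic AMP machinery (G protein, cyclases, phosphodiesterases, protein kinase A and its targets), 24 could be compared with LOC1 and 25 with LOC3. With LOC1, 2 were higher and 2 lower, with a median of -0.07, and with LOC3 1 was higher and 1 lower, with a median of 0.00. That LOC3 median is the 0 set for Adcy6, which was dim with LOC3, and not a measured difference. Gnas, which encodes the Gs alpha subunit, read 15283 with LPS, 13189 with LOC1+LPS and 14001 with LOC3+LPS, for -0.07 and 0.01 on the brightest of 9 probes. Prkar2b, a regulatory subunit of protein kinase A, read 217, 91.8 and 84.5, for -1.09 and -1.22, and was listed at -1.93 below unchallenged cells with LPS. Under normexp both Prkar2b differences were under 2-fold, at -0.78 and -0.80.

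Of the other calls in the cyclic AMP list, 3 came from dim probes. The cyclase gene Adcy6 (23.6, 54.3 and 22.5) was 1.35 higher with LOC1, the phosphodiesterase gene Pde8a (33.0, 64.2 and 45.9) 1.11 higher, and Prkar1b (34.1, 10.2 and 14.9) lower by a bound of -1.09. Under normexp they were at 0.58, 0.49 and -0.31. Pde3a read 4.04 with LPS, 3.03 with LOC1+LPS and 209 with LOC3+LPS on 1 of its 4 probes, for at least 14.1-fold higher with LOC3 (2.05 on the log2 scale under normexp), and no other Pde3a probe was well above background on either array of that comparison.

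**Figure D4:**
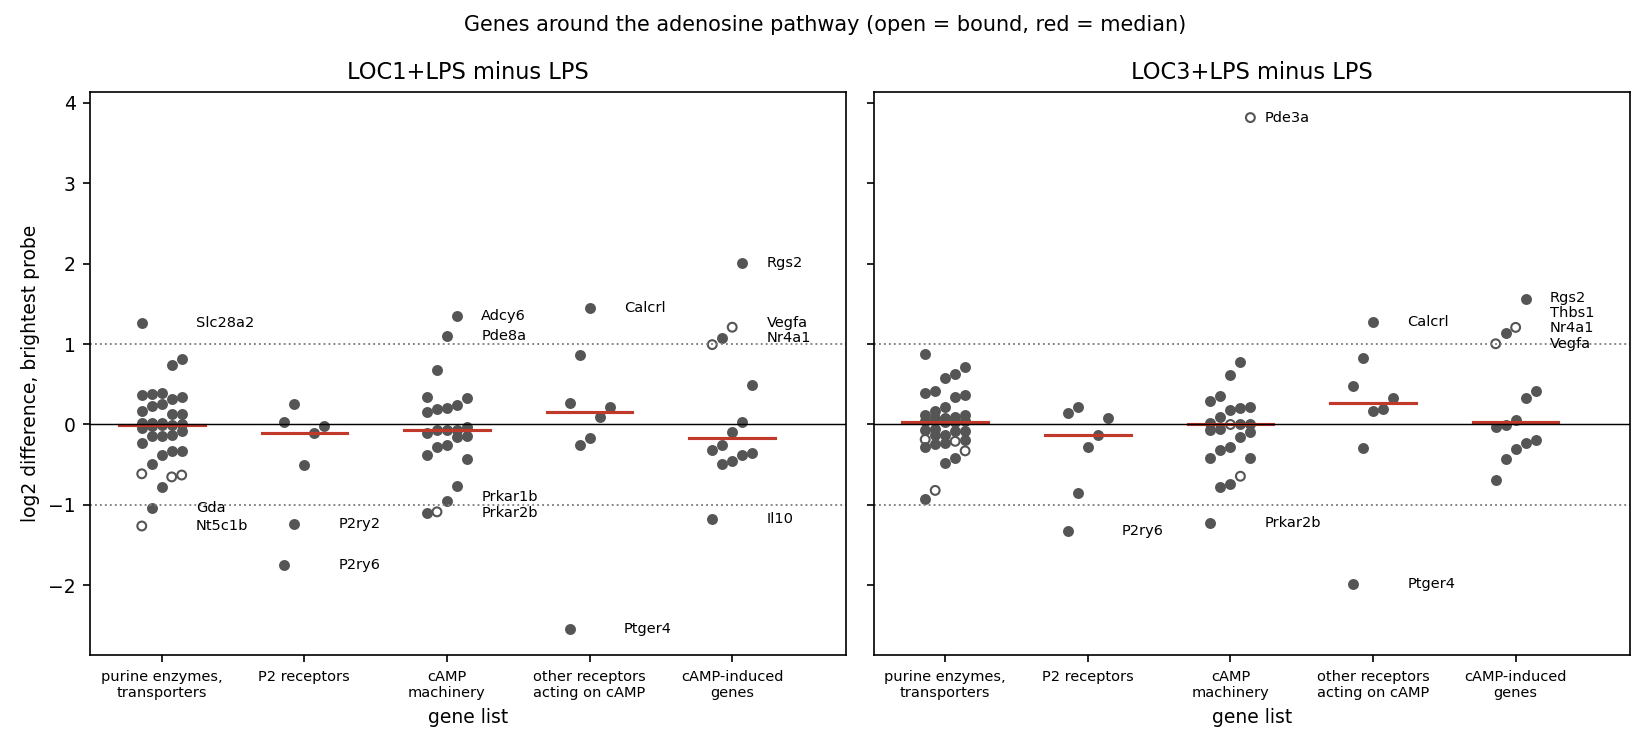
Log2 difference from LPS (vertical axis) with LOC1+LPS (left) and LOC3+LPS (right) for each gene compared in 5 lists around the adenosine pathway (horizontal axis), by its brightest probe. Open points are bounds, red lines medians and dotted lines 2-fold, and genes past 2-fold are named; the medians lie between -0.17 and 0.26, while Ptger4 lies at -2.55 and -1.99.

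Of 15 genes that cyclic AMP is known to induce, 14 could be compared: with LOC1, 3 were at least 2-fold higher and 1 lower, with a median of -0.17, and with LOC3 4 were higher and 0 lower, with a median of 0.02. Over all genes compared, 2.73% were higher and 3.56% lower with LOC1, and 3.26% and 2.96% with LOC3. Rgs2, a brake on G protein signalling, read 856 with LPS, 3102 with LOC1+LPS and 2296 with LOC3+LPS, for 2.003 and 1.56, from a level listed at -3.46 below unchallenged cells with LPS. The orphan nuclear receptor gene Nr4a1 read 1628, 3107 and 3269, for 1.08 and 1.14. Il10, the anti-inflammatory cytokine that adenosine receptors are known to raise, read 2416, 969 and 1628, for -1.17 with LOC1 and -0.43 with LOC3, with 4.60 listed above unchallenged cells with LPS. The Il10 values rest on 1 probe and 1 array per condition. The paper reports no IL-10 difference between treated and control macrophages on its arrays, and no change with LOC1 by quantitative PCR. Vegfa and Thbs1 were dim, with bounds of 1.21 and 0.99 with LOC1 and of 1.004 and 1.21 with LOC3. Another Vegfa probe gave -0.46 with LOC1 and -0.02 with LOC3. Under normexp neither gene was past 2-fold, with Vegfa at 0.43 and 0.31 and Thbs1 at 0.43 and 0.54, which leaves Rgs2 and Nr4a1 as the genes of this list higher with each strain.

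**Figure D5:**
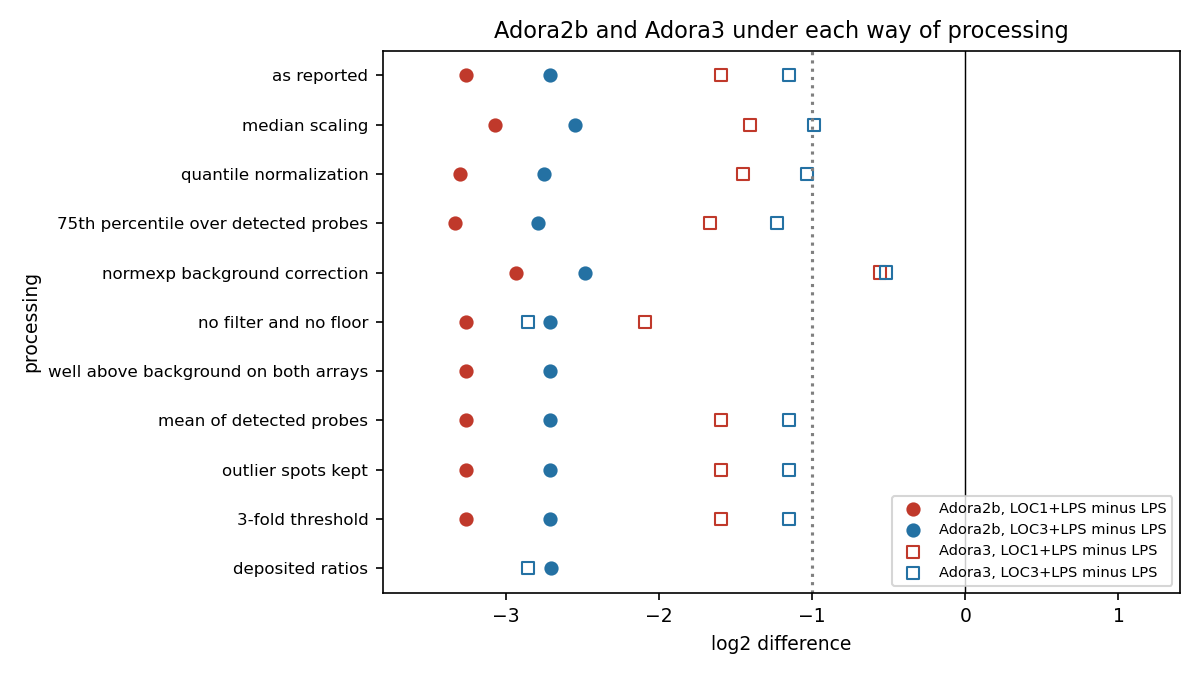
Log2 difference from LPS (horizontal axis) of Adora2b (filled circles) and Adora3 (open squares) with LOC1+LPS (red) and LOC3+LPS (blue) under each way of processing (vertical axis). The dotted line marks 2-fold lower; Adora2b lies between -3.33 and -2.93 with LOC1 and between -2.79 and -2.48 with LOC3, while Adora3 lies between -2.09 and -0.56 with LOC1 and between -2.86 and -0.51 with LOC3.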

How the data were processed

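RNA of RAW264.7 macrophages was measured on 1-colour Agilent mouse arrays, 1 per condition. The authors scanned the arrays with Feature Extraction, whose version is 12.0.3.1 per the file headers, and deposited each spot's background-corrected intensity, with no normalization between arrays. The authors also deposited log2 ratios to unchallenged cells for 13135 probes, made in GeneSpring. Of 12935 blank cells, 12933 came out under 2-fold when rebuilt from the intensities. Each ratio also subtracts the probe's own unchallenged value. Between arrays, the listed ratios of a probe differ as its log2 intensities do, less a constant per array. The exceptions were 2 cells with LOC1+LPS and 2 with LOC3+LPS. The column medians of the ratios were 1.05, -1.03 and -1.04. R 3.2.5 and limma are named in the submitters' processing notes, and the methods give limma for the statistics.

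Control spots and outlier spots (135, 118 and 133) were left out, and spots of a probe averaged. The log2 intensity less the array's 75th percentile was compared. With so few arrays the precision of any difference is low. Positions of probes are on mm9, as the files give them. Of the 15 probes of the set, 12 have an accession in the RefSeq table (GRCm38.p6), all 12 with the same symbol. The t-test named in the methods was not run, since it needs more than 1 array per condition.

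The members, the lists and the rules were chosen with earlier results of these data known. Named were all 8 genes of the set, the list genes past 2-fold with either strain, Gnas, Ptger2, Ptger4, P2rx7, Slc29a1, Pnp and Dpp4, and the 5 genes nearest to each member past 2-fold with both strains without a bound. The alternatives were median scaling, quantile normalization, the percentile over detected probes, normexp with an offset of 50, no filter and no floor, both arrays well above background, the mean of detected probes, outlier spots kept, a 3-fold threshold and the deposited ratios. One marker of another cell type is not reported here. The procedure was tested on simulated data. Python 3.11.15, numpy 2.4.6, pandas 2.3.3, matplotlib 3.10.9, R 4.3.3 and limma 3.58.1 were used.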

Additional observations from a re-analysis of the deposited data

How the results depend on the processing

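Adora2b stayed at least 2-fold lower with both strains under every alternative that gave a value, between -3.33 and -2.93 with LOC1 and between -2.79 and -2.48 with LOC3. Adora3 lost its call under normexp (-0.56 and -0.51) and, with LOC3, under median scaling (-0.99) and the 3-fold threshold (-1.15). The members called lower with LOC1 were then 1 under normexp and under well above background on both arrays, and 0 in the deposited ratios, which leave the LOC1 cell of Adora2b blank. With LOC3 they were 1 under median scaling, normexp, both arrays and 3-fold. With no filter 1 member (Adora1) was higher with LOC1. Median scaling moved the median of all genes to 0.22 and 0.21 from 0.03 and 0.05.

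Counts over all genes moved more. With LOC1, 894 (median scaling), 224 (normexp), 1540 (no filter) and 196 (3-fold) were higher instead of 546, and 474, 202, 2284, 465 (both arrays) and 218 lower instead of 712. With LOC3, 274 (normexp), 1776 (no filter), 334 (both arrays) and 268 (3-fold) were higher instead of 645, and 384 (median scaling), 148, 1985, 379 and 140 lower instead of 586. Between the strains, normexp, no filter, both arrays and 3-fold gave 40, 1182, 38 and 71 higher instead of 157, and 113, 1663, 70 and 220 lower instead of 369. Under normexp 8 list genes were past 2-fold with LOC1 instead of 15, and 1 instead of 2 between the strains. The cause was not tested. No paired analysis was possible because each condition has 1 array.

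Dim signal limits Adora1, Nt5e, Adora2a and Adora3: probes not well above background allow bounds or no value. No difference past 2-fold changed sign. Among those under 2-fold, median scaling turned Entpd1 to 0.05 with LOC1 and 0.06 with LOC3 and Adk to 0.13 with LOC1, and the mean of detected probes turned Adk to -0.07 with LOC3. Normexp turned the Adora2a difference between the strains from -0.06 to 0.02. Which direction held most of the calls over all genes also changed with the scaling. Leaving the Gi-coupled Hcar2 out of its list, chosen after the data were seen, moved that list's medians from 0.15 and 0.26 to 0.09 and 0.19.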
